A study of Mus musculus with 9 samples.

Results

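The set comprised 10 genes, of 21470 in the table, that encode the nuclear receptors that sense bile acids, drugs and lipids in the liver, with the transcription factors that keep hepatocyte genes active. They were taken by symbol as a fixed set: Nr1h4, Nr0b2, Nr1i2, Nr1i3, Ppara, Rxra, Nr5a2, Hnf4a, Cebpa and Nr1h3. All 10 were present and all 10 passed the filter on low values. The livers came from mice in 3 groups of 3 libraries each. The BDL+LIG group had bile duct ligation (BDL), an operation that stops bile flow into the gut, and received ligustilide (LIG), a phthalide of Angelica and Ligusticum roots. The BDL group had the ligation without LIG, and the sham group is labelled as sham only, so both ligated groups share the operation. The series' design gives the LIG dose as 10 mg/kg, but the titles of those samples carry the number 20. The sources used here do not give strain, sex, age, time after ligation or vehicle. Nothing in the labels says that the libraries came from separate mice, so the p-values measure only the spread between libraries, which may be technical.

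Bile acids are made from cholesterol in hepatocytes and are toxic when they build up, as they do when bile cannot leave. The farnesoid X receptor FXR (gene Nr1h4) binds them and, paired with the retinoid X receptor RXR-alpha (Rxra), turns on exporters and the small heterodimer partner SHP (Nr0b2). SHP binds no DNA itself and holds back LRH-1 (Nr5a2) and HNF4A (Hnf4a), which drive bile acid synthesis. PXR (Nr1i2) and CAR (Nr1i3) sense drugs and some bile acids and induce detoxifying enzymes, PPAR-alpha (Ppara) senses fatty acids, and LXR-alpha (Nr1h3) senses oxysterols. C/EBP-alpha (Cebpa) and HNF4A keep up genes of the mature hepatocyte. The table holds RNA levels and nothing on protein or receptor activity.

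The promoter sequences of 6 of these genes are shown, because these genes carry the differences described here or are classical targets of the set itself. All 10 genes were found in the RefSeq promoter table, which is on GRCm38.p6, a build earlier than the GRCm39 named for the reads. Each line gives the 250 bases before the annotated start, 5′ to 3′ on the gene's own strand. Capitals mark matches, on either strand, to 6 motifs, and no matches overlapped in these windows. Nuclear receptors share the core AGGTCA, and the core searched for LRH-1 was TCAAGG. For proteins of the C/EBP family the letters were TTGCNNAA. The E-box that basic helix-loop-helix factors read was CACGTG. General promoter elements were the GC box GGGCGG and the TATA box, searched as TATAAA. The windows are chr10:89506659-89506908 on the minus strand for Nr1h4, chr4:133553126-133553375 on the plus strand for Nr0b2 and chr16:38294825-38295074 on the minus strand for Nr1i2. Those of the other 3 are chr15:85735526-85735775 for Ppara, chr2:27676951-27677200 for the first of both listed Rxra starts and chr7:35119043-35119292 for Cebpa, all on the plus strand.
Nr1h4: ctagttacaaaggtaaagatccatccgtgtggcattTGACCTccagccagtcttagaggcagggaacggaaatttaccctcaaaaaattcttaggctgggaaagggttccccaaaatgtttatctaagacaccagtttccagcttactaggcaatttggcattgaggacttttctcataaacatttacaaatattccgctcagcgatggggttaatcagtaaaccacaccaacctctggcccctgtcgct
Nr0b2: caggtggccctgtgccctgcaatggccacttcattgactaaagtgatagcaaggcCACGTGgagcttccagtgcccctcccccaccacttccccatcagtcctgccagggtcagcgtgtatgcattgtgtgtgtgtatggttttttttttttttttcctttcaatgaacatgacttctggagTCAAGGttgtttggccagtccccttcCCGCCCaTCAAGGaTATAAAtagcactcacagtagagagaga
Nr1i2: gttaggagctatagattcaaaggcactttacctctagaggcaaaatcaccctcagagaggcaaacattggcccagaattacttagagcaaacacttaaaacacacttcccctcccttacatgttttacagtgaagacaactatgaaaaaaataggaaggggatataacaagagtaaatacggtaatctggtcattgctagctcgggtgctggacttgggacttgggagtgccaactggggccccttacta
Ppara: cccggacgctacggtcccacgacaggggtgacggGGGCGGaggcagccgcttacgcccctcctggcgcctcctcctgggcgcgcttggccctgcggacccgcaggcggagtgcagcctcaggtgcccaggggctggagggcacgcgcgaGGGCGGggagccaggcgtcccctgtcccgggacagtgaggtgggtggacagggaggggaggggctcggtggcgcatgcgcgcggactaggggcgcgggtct
Rxra: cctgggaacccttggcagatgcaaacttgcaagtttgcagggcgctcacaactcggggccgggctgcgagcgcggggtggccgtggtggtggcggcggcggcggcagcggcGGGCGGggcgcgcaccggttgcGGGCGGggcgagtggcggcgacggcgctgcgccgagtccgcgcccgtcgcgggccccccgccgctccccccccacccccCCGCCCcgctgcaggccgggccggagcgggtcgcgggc
Cebpa: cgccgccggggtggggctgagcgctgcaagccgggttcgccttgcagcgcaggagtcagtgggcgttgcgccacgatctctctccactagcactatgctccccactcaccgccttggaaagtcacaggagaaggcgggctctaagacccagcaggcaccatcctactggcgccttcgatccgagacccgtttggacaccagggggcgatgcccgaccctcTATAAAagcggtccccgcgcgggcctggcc
Nr0b2, a textbook target of LRH-1, held 2 copies of the LRH-1 core, starting 68 and 35 bases before its start, with a GC box at 42 and a TATA box at 28. It also held an E-box at 195. Over all 32851 promoters of the table, 12.5% held the LRH-1 core in a window of this length, 32.7% the GC box, 12.4% the TATA box, 6.02% the E-box and 9.56% the C/EBP letters. Nr1h4 held 1 nuclear receptor core, 214 bases before the start, which 14.0% of all promoters held. Ppara had 27 copies of the dinucleotide CG, the first Rxra window 40 and Cebpa 22. The window before the second listed Rxra start, not printed, had 1, with 0 GC boxes and 2 nuclear receptor cores, at 87 and 48 bases before that start. Nr1h4, Nr1i2 and Nr0b2 had 5, 2 and 3, and the median of all promoters was 6. Ppara held 2 GC boxes, the first Rxra window 3, Cebpa a TATA box and Nr1i2 none of the 6 motifs. A match is only a run of letters in this window.

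Levels are in FPKM, which divide the fragments of a gene by its transcript length and by the library size. The authors deposited them in this unit. Whole fragments could be worked out from them for 99.94% of the 19449 genes above 0 in at least 2 libraries. These summed to between 26827032 and 32661971 a library, and the 10 genes had 661 to 30281 fragments each in a library. The libraries of the sham group lay farthest apart: sham library 1 differed from sham libraries 2 and 3 by 0.52 and 0.60 (root mean square of log2(FPKM + 1) over tested genes). The other pairs within a group differed by 0.18 to 0.38, and no pair came near sampling noise (median chi-square per gene 2.62 or more). The 13 mitochondrially encoded genes took 5.86 to 8.58% of the FPKM in BDL+LIG, 8.3 to 9.76% in BDL and 10.6 to 16.8% in sham. Their part in the results was not tested.

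Differences are of log2(FPKM + 1) ± SE from limma over all 10142 tested genes and understate the change of low genes. Adjusted p-values are Benjamini-Hochberg values over those genes, with 0.05 as the threshold for a call. The median difference over all tested genes was not 0. It was 0.16 for BDL against sham, 0.18 for BDL+LIG against BDL and 0.34 for BDL+LIG against sham, and the main differences are also given relative to it. Median-of-ratios scaling moved these medians to -0.06, -0.03 and -0.09. The share of calls that were higher, 77.2%, 84.8% and 83.0% in the 3 comparisons, moved with it to 49.9%, 43.7% and 43.7%. It was 51.9%, 52.0% and 50.3% under quantile normalization, 51.3%, 49.0% and 49.1% with a trend in gene length removed, and 82.7%, 94.9% and 91.3% as TPM.

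In BDL against sham, 1 of the 10 genes rose and 3 fell, beside 22.9% of all tested genes called higher, 6.76% called lower and 29.7% called in all. PXR (Nr1i2) rose, and FXR (Nr1h4), C/EBP-alpha (Cebpa) and PPAR-alpha (Ppara) fell. When BDL+LIG was set against BDL, 2 of 10 rose, PPAR-alpha and RXR-alpha (Rxra), and 0 fell, beside 9.98% called higher and 1.79% called lower (11.8% in all). The comparisons share the BDL libraries, so their differences are linked. Calls in BDL+LIG against BDL rested on all 3 BDL libraries: without BDL library 1, 2 or 3, limma called 40, 0 and 54 of all tested genes there in place of 1194, and 0 of the 10. Without BDL library 2 there were 2317 genes at an unadjusted p under 0.05, and voom with all libraries called 1364. Of the 22 other genes named below as called in that comparison, 1, 0 and 1 kept the call without BDL library 1, 2 and 3 (Mylip in both cases). With median-of-ratios scaling 6 of the 22 kept it (Acot1, Acot2, F9, Mylip, S1pr2 and Slc51b), and 7 with the length trend removed, where Cyp8b1 and Cyp2c29 took the place of Slc51b. Set against sham, BDL+LIG had 3 that rose (Nr1i2, Rxra and Nr5a2) and 2 that fell (Nr1h4 and Cebpa), where 43.7% of all tested genes were called higher and 8.92% lower (52.6% in all). The share called among the 10 genes was thus near the background in that comparison. In BDL against sham, 4 of the 10 were called beside 29.7%, and in BDL+LIG against BDL 2 beside 11.8%. With only 10 genes, these shares are near the background too. For BDL against sham, all libraries lay higher in 1 of the 10 genes and all lower in 3, beside 33.7% and 11.3% of all tested genes (45.0% without overlap in all). For BDL+LIG against BDL they lay higher in 5 and lower in 0, beside 40.7% and 10.5% (51.2%). Higher in 5 and lower in 2 were the counts for BDL+LIG against sham, beside 45.7% and 9.71% (55.4%).

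**Figure D1:**
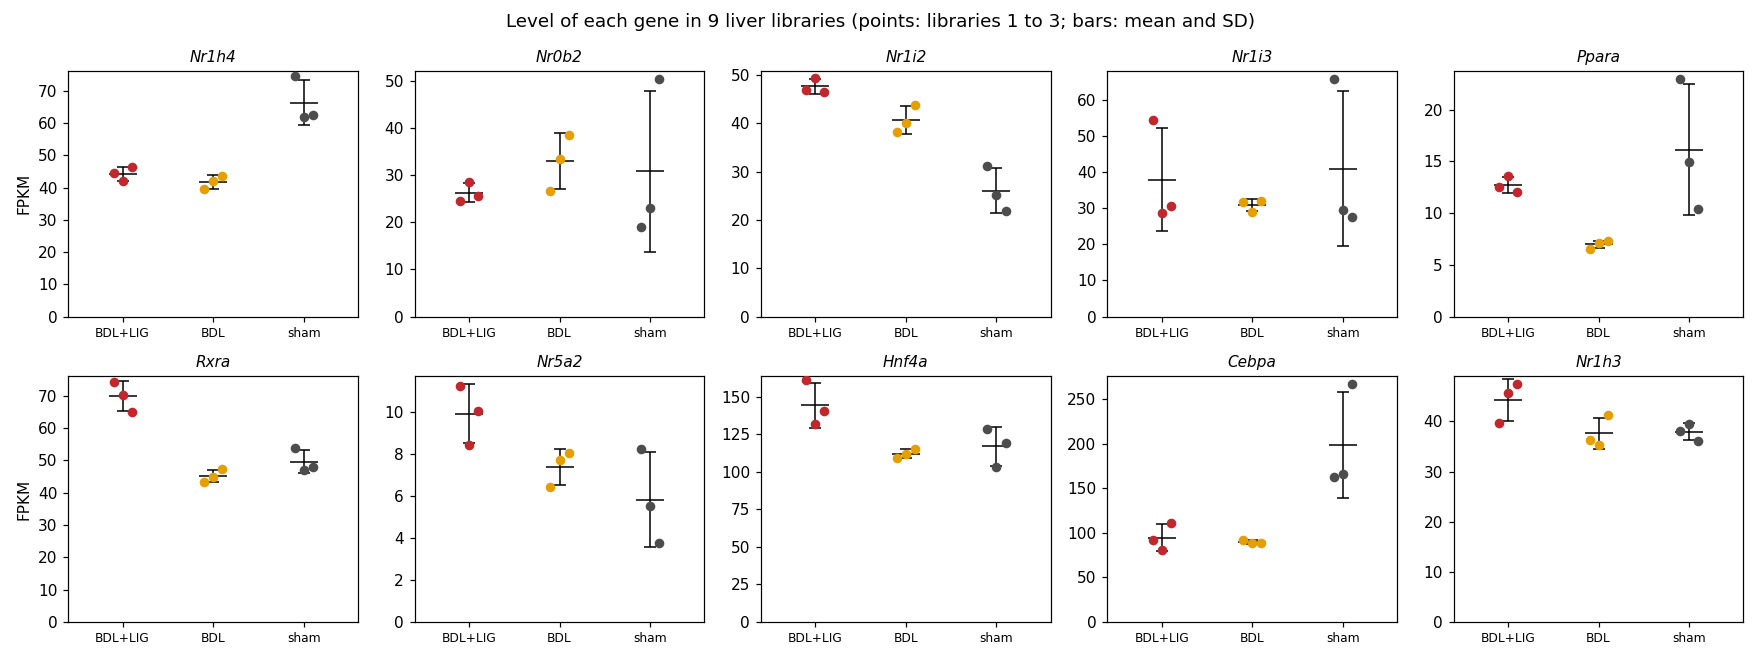
Level of each of the 10 genes in FPKM (vertical axes, from 0) in the 3 libraries of BDL+LIG, BDL and sham, with points for libraries and bars for mean and SD. Nr1h4 and Cebpa are lower in all 6 ligated libraries than in any sham library. Ppara, Rxra, Nr1i2, Nr5a2 and Hnf4a are higher in each BDL+LIG library than in any BDL library, as are 40.7% of all tested genes.

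The receptor for bile acids itself, Nr1h4, had 44.5, 42.0 and 46.3 FPKM in BDL+LIG, 39.5, 42.0 and 43.6 in BDL and 74.4, 61.9 and 62.6 in sham. Every ligated library lay below every sham library, and the 2 ligated groups overlapped. Nr1h4 fell by 0.65 ± 0.11 in BDL against sham (log2, limma adjusted p = 0.00174), and by 0.82 relative to the median gene. Nr1h4 also fell in BDL+LIG against sham, by 0.57 ± 0.11 (adjusted p = 0.00184; 0.91 relative to the median gene), a call that TPM lost (-0.34, adjusted p = 0.0541). BDL+LIG differed from BDL by 0.08 ± 0.11, with a 95% interval of -0.16 to 0.33 and an adjusted p of 0.634. In bulk liver, fewer cells of a type and less RNA per cell cannot be told apart.

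Nr0b2, whose product SHP is induced by FXR, had 24.6, 28.6 and 25.7 FPKM in BDL+LIG, 26.7, 33.5 and 38.6 in BDL and 19.1, 23.0 and 50.4 in sham. Sham library 3 was higher than all other libraries and the groups overlapped. None of the 3 comparisons passed the test, with 0.20 ± 0.29 for BDL against sham, -0.30 ± 0.29 for BDL+LIG against BDL and -0.10 ± 0.29 for BDL+LIG against sham. The call turned on single sham libraries: without sham library 3, BDL was above sham by 0.61 (adjusted p = 0.0225), and without sham library 1 the difference was -0.07. Nr5a2, whose product LRH-1 drives Cyp7a1 and Cyp8b1 and binds phospholipids, had 11.2, 8.43 and 10.1 FPKM in BDL+LIG, 6.40, 7.70 and 8.03 in BDL and 8.24, 5.51 and 3.73 in sham. It was lowest of the 10 genes in BDL+LIG and sham, and each BDL+LIG library lay above every BDL and sham library. It rose by 0.72 ± 0.22 in BDL+LIG against sham (adjusted p = 0.0185; 0.38 relative to the median gene), a call kept in 11 of 19 alternatives. The 8 that lost it were median-of-ratios scaling (0.24), the length trend removed (0.21), quantile normalization (0.32), no filter (0.72), and leaving out BDL+LIG library 1 (0.64) or 3 (0.71) or sham library 2 (0.71) or 3 (0.49). BDL differed from sham by 0.34 ± 0.22 (adjusted p = 0.271), and by 0.59 without sham library 1 (adjusted p = 0.0192). BDL+LIG against BDL gave 0.38 ± 0.22 (adjusted p = 0.26).

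Of 19 tested targets of FXR in the list used here, 7 rose and 4 fell in BDL against sham, with a median of 0.20 against 0.16 over all genes. Slc51b, a subunit of the exporter that returns bile acids to blood, had a mean of 29.5 ± 2.71 FPKM in BDL and 0.816 ± 0.767 in sham (SD, n = 3 libraries each). Its rise, 4.17 ± 0.31 (adjusted p = 9.89e-06), was joined by the phospholipid flippase Abcb4, with 66.5 ± 1.19 FPKM in BDL and 34.4 ± 4.47 in sham (0.94 ± 0.13, adjusted p = 0.000498). The canalicular bile salt pump Abcb11 rose by 0.57 ± 0.19 (adjusted p = 0.0463), with 70.6 ± 1.04 FPKM in BDL and 49.0 ± 17.2 in sham, a call near the threshold that 12 of 19 alternatives lost. Among these were median-of-ratios scaling (0.29, adjusted p = 0.18), quantile normalization (0.53), no filter, and leaving out any 1 ligated library or sham library 2 or 3. The targets that fell included the carboxylesterase Ces2a, with 48.2 ± 6.15 FPKM in BDL and 181 ± 14.3 in sham (-1.89 ± 0.15), and Osgin1 (-1.04 ± 0.17). The syndecan Sdc1 rose (1.38 ± 0.14). Between BDL+LIG and BDL, 2 of the 19 rose and 2 fell, with a median of 0.27 beside 0.18 over all genes. Slc51b fell to 13.0 ± 4.54 FPKM in BDL+LIG, against 29.5 ± 2.71 in BDL (-1.17 ± 0.31, adjusted p = 0.0408). That call was near the threshold, and 13 of 19 alternatives lost it. Among these were TPM, voom, no filter, the replicate block, the length trend removed and leaving out any 1 ligated library. The secreted protein gene Fetub fell as well (-0.71 ± 0.17, adjusted p = 0.0304), and Sdc1 rose (0.50 ± 0.14, adjusted p = 0.0451). Their calls were lost in 9 and 13 of 19 alternatives. With median-of-ratios scaling or the length trend removed 0 of the 19 rose and 1 fell in BDL+LIG against BDL, as TPM 5 rose and 1 fell, and with the replicate block 0 were called.

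Of 5 genes held down through FXR and SHP, 0 rose and 2 fell in BDL against sham (median -0.55). Without sham library 1, 1 rose and 3 fell. The sterol 12-alpha-hydroxylase Cyp8b1, which sets the share of cholic acid, had 23.6 ± 1.51 FPKM in BDL and 126.0 ± 20.2 in sham (-2.36 ± 0.13, adjusted p = 2.26e-06). The sinusoidal bile acid importer Slc10a1 had 127 ± 5.39 FPKM in BDL and 250.1 ± 22.8 in sham (-0.97 ± 0.12). Cyp7a1, the rate-limiting enzyme of bile acid synthesis, had 36.8 ± 12.4 FPKM in BDL+LIG, 26.3 ± 4.05 in BDL and 16.2 ± 13.5 in sham, and BDL against sham did not pass the test (0.93 ± 0.44, adjusted p = 0.14). Between BDL+LIG and BDL, 1 of the 5 rose: Cyp8b1 had 39.8 ± 2.64 FPKM in BDL+LIG and 23.6 ± 1.51 in BDL (0.73 ± 0.13, adjusted p = 0.0141). Of 8 tested LRH-1 targets, 2 rose and 3 fell in BDL against sham, and 1, again Cyp8b1, rose in BDL+LIG against BDL (0 with median-of-ratios scaling, 3 as TPM). The high-density lipoprotein receptor Scarb1 rose in BDL against sham (0.92 ± 0.11). Lists share genes, so Cyp8b1 counts in 3 of them.

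The drug receptor PXR, gene Nr1i2, had 46.9, 49.5 and 46.6 FPKM in BDL+LIG, 38.1, 40.1 and 43.8 in BDL and 31.2, 25.2 and 21.9 in sham. The 3 groups did not overlap, with BDL+LIG above BDL and BDL above sham. Nr1i2 rose in BDL against sham by 0.63 ± 0.13 (adjusted p = 0.00538; 0.47 relative to the median gene) and in BDL+LIG against sham by 0.86 ± 0.13 (adjusted p = 0.000482; 0.52 relative to the median gene). Both calls held in all 19 alternatives, with the smaller values 0.35 and 0.31 under the least favourable one. BDL+LIG against BDL was 0.23 ± 0.13 and did not pass (adjusted p = 0.267, interval -0.07 to 0.52). CAR, gene Nr1i3, had 54.3, 28.8 and 30.6 FPKM in BDL+LIG, 31.8, 28.9 and 31.9 in BDL and 65.7, 29.5 and 27.6 in sham. Library 1 of BDL+LIG and library 1 of sham stood above the other 7, which lay between 27.6 and 31.9. No comparison of Nr1i3 passed the test, and BDL against sham was -0.28 ± 0.32 with all libraries and 0.11 without sham library 1.

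Among 20 tested PXR and CAR targets, 12 rose and 1 fell in BDL against sham, with a median of 0.74 against 0.16 over all genes. With median-of-ratios scaling 6 rose and 1 fell. The gene that fell in the reported fit was Ces2a, which counts among the FXR targets too. Its adjusted p was the smallest of the list (-1.89, limma adjusted p = 1.26e-05). The drug efflux pump Abcb1a had 2.95 ± 0.574 FPKM in BDL and 0.198 ± 0.124 in sham (1.72 ± 0.16, adjusted p = 4.13e-05), and the stress gene Gadd45b rose by 1.87 ± 0.22 (adjusted p = 0.000181). Cyp3a11, the standard PXR target in mouse, had 2033 ± 191 FPKM in BDL and 1323 ± 329 in sham and did not pass (0.64 ± 0.27, adjusted p = 0.101). The Cyp3a genes are closely alike, so its level is uncertain. Of the same 20, 2 rose and 0 fell in BDL+LIG against BDL (median 0.28). They were the basolateral exporter Abcc3, with 78.4 ± 10.7 FPKM in BDL+LIG and 51.1 ± 1.86 in BDL (0.60 ± 0.16, adjusted p = 0.0406), and the standard CAR target Cyp2b10. Cyp2b10 was low, at 2.59 ± 1.25 FPKM in BDL+LIG, 0.622 ± 0.593 in BDL and 0.491 ± 0.282 in sham, and libraries of BDL+LIG and BDL overlapped (1.14 ± 0.32, adjusted p = 0.0451). With quantile normalization, median-of-ratios scaling or the length trend removed 0 of the 20 were called there.

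**Figure D2:**
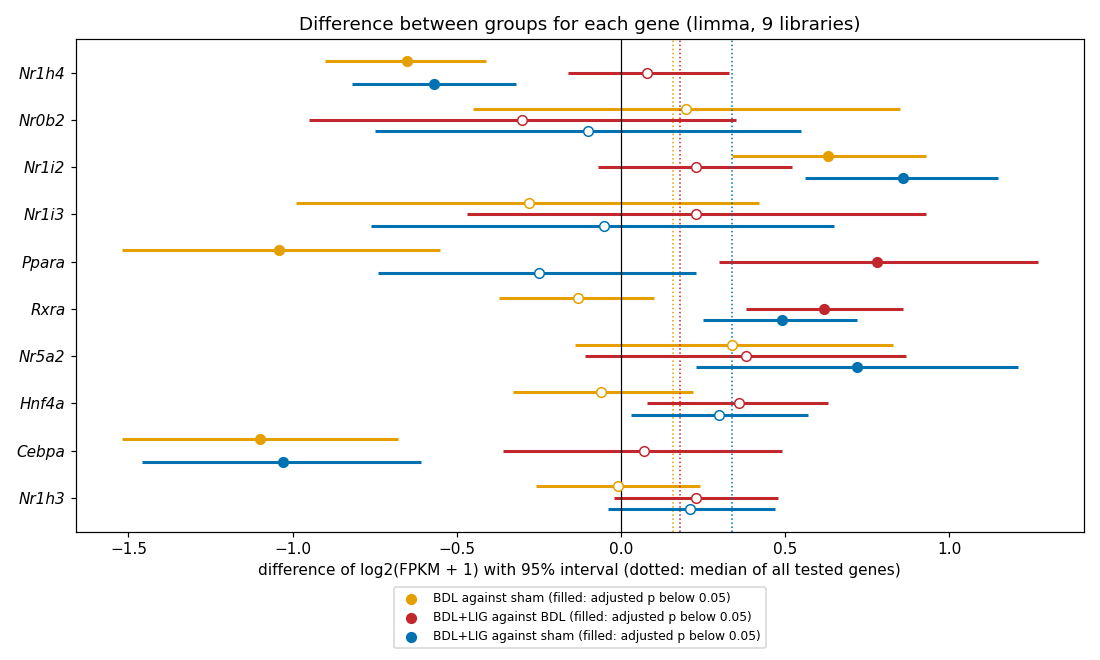
Difference of log2(FPKM + 1) for each of the 10 genes in the 3 comparisons (horizontal axis) with its 95% interval from limma, filled where the adjusted p is below 0.05, and dotted lines at the median of all tested genes. Ppara lies at -1.04 for BDL against sham and at 0.78 for BDL+LIG against BDL, and the intervals of Nr0b2 and Nr1i3 cover 0 in every comparison.

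Ppara, the fatty acid receptor that drives oxidation and ketone production in fasting, had 12.5, 13.6 and 12.02 FPKM in BDL+LIG, 6.55, 7.09 and 7.26 in BDL and 22.9, 14.9 and 10.4 in sham. All BDL libraries lay below all libraries of both other groups, and BDL+LIG lay within the wide range of sham. In BDL against sham Ppara fell by 1.04 ± 0.22 (adjusted p = 0.00557; 1.20 relative to the median gene), and the call held in all 19 alternatives, with -0.76 without sham library 1. It rose in BDL+LIG against BDL, by 0.78 ± 0.22 (adjusted p = 0.0458; 0.61 relative to the median gene). That call was near the threshold: over 19 alternatives values ran from 0.43 to 0.96 and adjusted p from 0.00283 to 0.149, and 6 passed. Median-of-ratios scaling gave 0.54 and removal of the length trend 0.43, neither past the threshold. Quantile normalization (0.63), log2(FPKM + 0.1) (0.86), no filter (0.78) and the replicate block (0.78) did not pass either. The call was lost without BDL+LIG library 1, 2 or 3 (0.79, 0.74 and 0.82), without BDL library 1, 2 or 3 (0.75, 0.79 and 0.81) and without sham library 2 (0.78). BDL+LIG against sham was -0.25 ± 0.22 (adjusted p = 0.351), -0.60 relative to the median gene, and 0.02 without sham library 1. Ppara passed as lower there in 4 of 19 alternatives. These were median-of-ratios scaling (-0.77), the length trend removed (-0.75), quantile normalization (-0.58) and leaving out sham library 3 (-0.51).

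The shared partner RXR-alpha, gene Rxra, had 74.3, 70.4 and 65.1 FPKM in BDL+LIG, 43.3, 44.8 and 47.2 in BDL and 53.8, 47.1 and 48.0 in sham. Each BDL+LIG library was above all 6 other libraries, and BDL and sham overlapped. Rxra rose by 0.62 ± 0.11 in BDL+LIG against BDL (adjusted p = 0.0131; 0.44 relative to the median gene). Values stayed between 0.30 and 0.77 in 19 alternatives, and 14 of them passed the threshold. The call was lost with median-of-ratios scaling (0.36), with the length trend removed (0.30) and without BDL library 1, 2 or 3 (0.59, 0.62 and 0.65). Rxra also rose in BDL+LIG against sham, by 0.49 ± 0.11 (adjusted p = 0.00339; 0.14 relative to the median gene), but its sign turned to -0.06 with median-of-ratios scaling and -0.03 with the length trend removed. BDL against sham was -0.13 ± 0.11 (adjusted p = 0.382), and it fell by 0.42 and by 0.33 under those same settings, past the threshold in both. The relative Rxrb, which pairs with the same receptors, had 10.2 ± 0.461 FPKM in BDL+LIG and 6.63 ± 0.308 in BDL (0.56 ± 0.11, adjusted p = 0.0182).

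**Figure D3:**
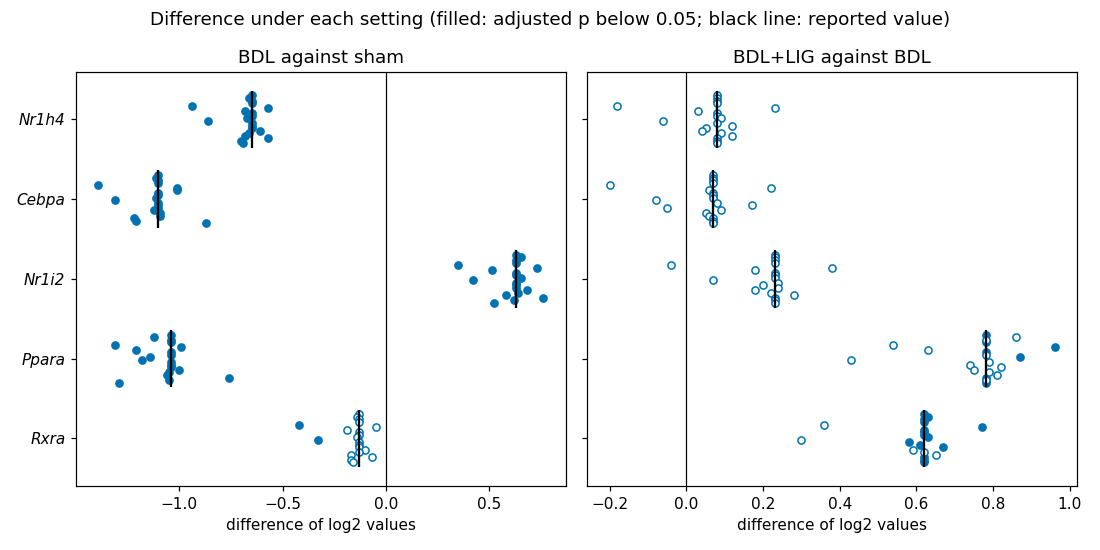
Difference of log2 values (horizontal axis) for 5 genes under the reported fit (black line) and each alternative (points, filled where the adjusted p is below 0.05), for BDL against sham at left and BDL+LIG against BDL at right. Nr1h4, Cebpa, Nr1i2 and Ppara are filled under every setting at left, and Ppara and Rxra are filled under only some of the settings at right.

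LXR-alpha, gene Nr1h3, had 39.7, 45.6 and 47.6 FPKM in BDL+LIG, 36.4, 35.4 and 41.2 in BDL and 38.1, 39.6 and 36.2 in sham. The libraries of BDL+LIG and BDL overlapped, as did those of BDL and sham, and each BDL+LIG library was above each sham library. No comparison passed the test: -0.01 ± 0.11 for BDL against sham, with an interval of -0.26 to 0.24, and 0.23 ± 0.11 for BDL+LIG against BDL (adjusted p = 0.192). BDL+LIG against sham was 0.21 ± 0.11 (adjusted p = 0.135) and turned to -0.33 with median-of-ratios scaling and -0.09 with the length trend removed. As TPM it was 0.45 and passed (limma adjusted p = 0.0104), the only 1 of 19 alternatives that did.

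Of 28 tested PPAR-alpha targets, 6 rose and 11 fell in BDL against sham, with a median of -0.39 against 0.16 over all genes. Fabp1, the fatty acid binding protein of hepatocytes, had 661 ± 34.0 FPKM in BDL and 9280.0 ± 1164 in sham (-3.80 ± 0.62, adjusted p = 0.00129). Cpt2, of the mitochondrial carnitine shuttle, fell by 0.72 ± 0.11 (adjusted p = 0.00109). Against these, Cd36, a fatty acid carrier also made by macrophages and endothelium, rose by 2.93 ± 0.20 (adjusted p = 5.12e-06), with 18.1 ± 3.08 FPKM in BDL and 1.55 ± 0.687 in sham. Cyp4a14, an omega-hydroxylase, also rose, with 26.5 ± 3.26 FPKM in BDL and 10.9 ± 2.88 in sham, and its relative Cyp4a10 (30.9 ± 7.27 in BDL and 49.1 ± 20.8 in sham) did not pass.

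Between BDL+LIG and BDL, 8 of the 28 PPAR-alpha targets rose and 0 fell, a median of 0.32 beside 0.18 over all genes. With median-of-ratios scaling 3 rose, and with the length trend removed 4 rose. The thioesterase Acot1 had 3.87 ± 0.441 FPKM in BDL+LIG and 1.04 ± 0.496 in BDL (1.29 ± 0.21, adjusted p = 0.0128), and its neighbour and near-copy Acot2 had 5.09 ± 1.10 FPKM in BDL+LIG and 2.09 ± 0.274 in BDL (0.97 ± 0.17). Reads of this pair may be split between them. Aldh3a2, a fatty aldehyde dehydrogenase, rose by 0.64 ± 0.12 (adjusted p = 0.0158). Fabp1 had 849.8 ± 899.7 FPKM in BDL+LIG, with libraries between 189 and 1874, and did not pass the test against BDL.

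Of 15 LXR targets, 3 rose and 3 fell in BDL against sham (median -0.05). The phospholipid transfer protein Pltp rose by 1.60 ± 0.22 and the lipoprotein lipase Lpl by 1.78 ± 0.25, while the sterol exporters Abcg5 and Abcg8 fell by 0.71 ± 0.21 and 1.14 ± 0.18. The Abcg8 call held in all 19 alternatives, and that of Abcg5 was lost in 7: no filter, TPM (-0.63), the 2 groups alone, and without BDL library 1, 2 or 3 or sham library 2 (adjusted p 0.0541 to 0.0885). Pltp, Lpl and Cd36 are also made by macrophages, whose 9 markers summed to 494 to 725 FPKM in BDL and 107 to 185 in sham, and their part was not tested. LIG-treated ligated liver, set against BDL, had 2 that rose and 0 that fell (median 0.43), 1 and 0 with median-of-ratios scaling or the length trend removed, and 4 and 0 as TPM. Mylip, which marks the low-density lipoprotein receptor for breakdown, had 3.22 ± 0.396 FPKM in BDL+LIG and 0.965 ± 0.0406 in BDL (1.10 ± 0.12, adjusted p = 0.00697). The desaturase Scd1 had 1249 ± 609 FPKM in BDL+LIG and 393 ± 165 in BDL (1.65 ± 0.41, adjusted p = 0.0319). Abca1, at 12.9 ± 0.351 FPKM in BDL+LIG, 12.01 ± 1.21 in BDL and 9.16 ± 4.94 in sham, and Srebf1, at 25.1 ± 12.5 in BDL+LIG, 22.5 ± 1.01 in BDL and 28.4 ± 7.39 in sham, passed no test.

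Cebpa, whose product keeps up metabolic genes and restrains hepatocyte division, had 92.3, 80.9 and 111 FPKM in BDL+LIG, 92.3, 88.2 and 88.7 in BDL and 163, 167 and 267 in sham. Each ligated library was below each sham library, sham library 3 was highest, and the ligated groups overlapped. Cebpa fell by 1.10 ± 0.19 in BDL against sham (adjusted p = 0.00192; 1.26 relative to the median gene) and by 1.03 ± 0.19 in BDL+LIG against sham (adjusted p = 0.00133; 1.38 relative to the median gene). Both calls held in all 19 alternatives, with -1.39 to -0.87 for BDL against sham. BDL+LIG differed from BDL by 0.07 ± 0.19 (adjusted p = 0.832, interval -0.36 to 0.49).

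Hnf4a, a nuclear receptor that occupies many hepatocyte promoters, had 160.8, 131 and 141 FPKM in BDL+LIG, 109, 112 and 115 in BDL and 129, 103 and 119 in sham. The BDL+LIG libraries lay above all others, and BDL lay within the range of sham. Hnf4a passed no test: BDL against sham was -0.06 ± 0.12 (interval -0.33 to 0.22), and BDL+LIG against BDL was 0.36 ± 0.12 (adjusted p = 0.0782). BDL+LIG against BDL passed in 3 of 19 alternatives, as TPM, with the 2 compared groups alone and without sham library 1. BDL+LIG against sham was 0.30 ± 0.12 (adjusted p = 0.0608) and turned to -0.25 with median-of-ratios scaling and -0.21 with the length trend removed. Hnf4a passed as higher there in 4 of 19 alternatives. These were TPM (0.54), quantile normalization (0.42), and leaving out BDL+LIG library 2 (0.37) or sham library 1 (0.37).

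Of 24 genes driven by HNF4A and C/EBP-alpha, 2 rose and 10 fell in BDL against sham, with a median of -0.43 against 0.16 over all genes. The glycogen synthase Gys2 had 27.2 ± 2.55 FPKM in BDL and 92.1 ± 11.5 in sham (-1.72 ± 0.13, adjusted p = 1.12e-05). The cytochrome Cyp2c29 had 75.8 ± 12.5 FPKM in BDL and 341 ± 32.3 in sham (-2.16 ± 0.18, adjusted p = 1.67e-05). Of these 24, 3 rose and 1 fell in BDL+LIG against BDL (median 0.15). That balance turned to 0 higher and 2 lower with median-of-ratios scaling and was 2 and 2 with the length trend removed. Cyp2c29 had 149 ± 33.0 FPKM in BDL+LIG and 75.8 ± 12.5 in BDL (0.95 ± 0.18, adjusted p = 0.0146), Cyp8b1 rose as given for the SHP-repressed genes, and the clotting factor F9 fell by 0.50 ± 0.11 (adjusted p = 0.024).

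Among 27 other hepatocyte transcription factors, 1 rose and 7 fell in BDL against sham (1 and 11 with quantile normalization, 4 and 6 without sham library 1), and 1 rose in BDL+LIG against BDL. In that comparison 0 were called with median-of-ratios scaling, quantile normalization, the length trend removed or the replicate block, and 4 rose as TPM. The clock output factor Dbp had 12.2 ± 3.75 FPKM in BDL and 90.2 ± 22.8 in sham (-2.80 ± 0.22), and Atf5 fell by 0.84 ± 0.15. The acute-phase factor Cebpd, a relative of Cebpa, rose by 2.12 ± 0.30 (adjusted p = 0.000553), with 11.0 ± 1.27 FPKM in BDL and 1.91 ± 1.11 in sham. Cebpb, also of that family, had 78.7 ± 22.3 FPKM in BDL+LIG, 95.4 ± 13.9 in BDL and 69.2 ± 23.9 in sham and passed no test. Foxa1, Foxa2, Foxa3, Prox1 and Onecut1, which act beside HNF4A in building the hepatocyte, passed no test either. Foxa3, for example, had 29.6 ± 3.71 FPKM in BDL+LIG, 30.3 ± 1.23 in BDL and 36.1 ± 7.41 in sham. Creb3l3, a membrane-bound factor that works with PPAR-alpha, rose by 0.44 ± 0.12 in BDL+LIG against BDL (adjusted p = 0.0479).

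Of 22 other nuclear receptors tested, 4 rose and 1 fell in BDL against sham. That balance turned to 3 higher and 6 lower with median-of-ratios scaling or the length trend removed, and to 2 and 6 with quantile normalization. The clock repressor Nr1d1 had 2.83 ± 0.471 FPKM in BDL and 38.4 ± 17.2 in sham (-3.26 ± 0.31, adjusted p = 3.83e-05), and the retinoic acid receptor Rarg rose (0.72 ± 0.13). Of these receptors 4 rose and 0 fell in BDL+LIG against BDL, among them Rxrb, Rarg (0.64 ± 0.13, adjusted p = 0.0187) and the orphan receptor Nr2f6 (0.46 ± 0.12, adjusted p = 0.0334). With median-of-ratios scaling, quantile normalization or the length trend removed 0 of the 22 were called there, with the replicate block 2 rose, and as TPM 9 rose.

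The proteins that receptors call to a promoter formed a list of 18 tested coactivators and corepressors, of which 3 rose in BDL against sham and 3 in BDL+LIG against BDL, with 0 falling in either. In BDL against sham this became 1 higher with median-of-ratios scaling or the length trend removed, and 1 higher and 2 lower with quantile normalization. In BDL+LIG against BDL it became 0 with the first 2 of these settings and 1 with the replicate block. Those of the second comparison were the acetyltransferase Ep300 (0.74 ± 0.21, adjusted p = 0.0451) and the steroid receptor coactivators Ncoa3 (0.81 ± 0.18, adjusted p = 0.0224) and Ncoa2 (0.67 ± 0.19, adjusted p = 0.046). Those of the first were the corepressor subunits Tbl1xr1 and Tbl1x and the demethylase Kdm1a, with 2.73 ± 0.249, 6.40 ± 0.0833 and 4.04 ± 0.103 FPKM in BDL and 1.58 ± 0.250, 4.16 ± 0.726 and 2.61 ± 0.803 in sham. Bile acids also act at the cell surface, and of 6 tested genes of that route 2 rose and 1 fell in BDL against sham, and 3 rose in BDL+LIG against BDL (1 with median-of-ratios scaling or the length trend removed). S1pr2, a receptor for sphingosine-1-phosphate that conjugated bile acids can also activate, had 4.70 ± 0.920 FPKM in BDL+LIG, 2.17 ± 0.405 in BDL and 0.738 ± 0.216 in sham. Its differences were 0.84 ± 0.17 for BDL+LIG against BDL and 0.87 ± 0.17 for BDL against sham. Klb, the coreceptor for the gut hormone that reports bile acids to the liver, had 3.90 ± 0.500 FPKM in BDL+LIG, 2.01 ± 0.204 in BDL and 4.16 ± 1.16 in sham. It fell by 0.75 ± 0.17 in BDL against sham (adjusted p = 0.00807) and rose by 0.70 ± 0.17 in BDL+LIG against BDL (adjusted p = 0.0313). Klb kept the fall in all 18 alternatives that tested it. It lost the rise in 11 of these, among them median-of-ratios scaling, quantile normalization and leaving out any 1 ligated library. Its partner Fgfr4 had 10.6 ± 1.28 FPKM in BDL+LIG, 8.58 ± 0.213 in BDL and 8.70 ± 3.02 in sham and passed no test.

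**Figure D4:**
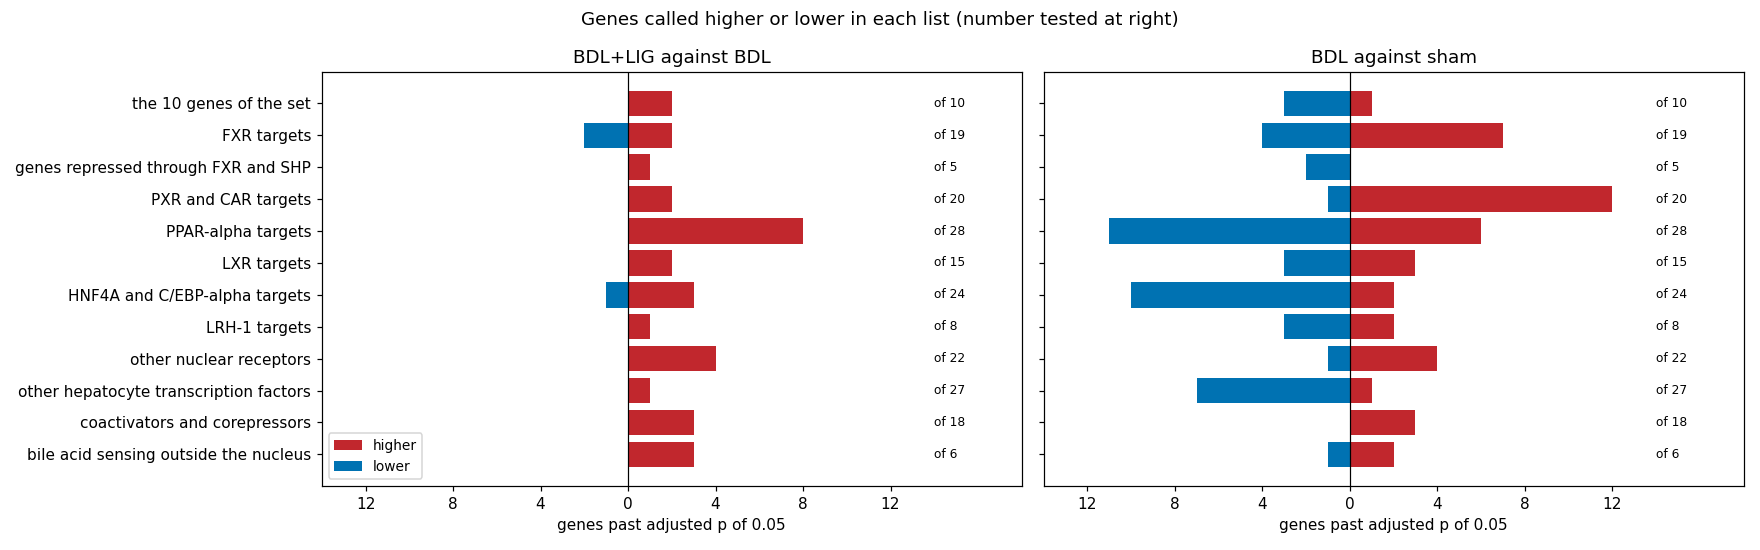
Number of genes called higher (right of 0) and lower (left of 0) in the 10 genes and in each list of related genes, for BDL+LIG against BDL and for BDL against sham, with the number tested at the right of each row. PPAR-alpha targets hold 11 lower calls of 28 in BDL against sham and 8 higher calls of 28 in BDL+LIG against BDL.

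Markers of other liver cells moved with these groups. Hepatocyte markers (9 of 10 in the table) summed to 51510.0 to 59230.0 FPKM in BDL+LIG, 43280.0 to 49780.0 in BDL and 54270.0 to 64940.0 in sham, and none was at 0. Summed levels of 9 cholangiocyte markers, the cells of bile ducts, were 228 to 465 FPKM in BDL+LIG, 415 to 609 in BDL and 24.1 to 43.9 in sham, with Cldn4 and Cftr among those at 0 in some libraries. Those of 9 Kupffer cell and macrophage markers were 604 to 1318 FPKM in BDL+LIG, 494 to 725 in BDL and 107 to 185 in sham. Sinusoidal endothelium (7 markers) had 58.6 to 85.1 FPKM in BDL+LIG, 39.2 to 42.0 in BDL and 28.3 to 33.4 in sham, and all 7 markers were called higher in BDL+LIG against BDL, but 3 with median-of-ratios scaling and 4 with the replicate block. Stellate cell and myofibroblast markers (8) had 62.6 to 104 FPKM in BDL+LIG, 35.5 to 40.4 in BDL and 16.7 to 46.3 in sham, and neutrophil markers (5) had 15.6 to 39.4 in BDL+LIG, 42.3 to 46.5 in BDL and 4.11 to 5.60 in sham. The 7 markers of T, NK and B cells summed to 3.00 to 9.32 FPKM in BDL+LIG, 1.14 to 1.56 in BDL and 0.927 to 2.26 in sham, with Ncr1 among those at 0 in some libraries. Their part in the differences of the 10 genes was not tested.

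Each gene was also set against hepatocytes by subtracting the mean log2 FPKM of the 9 hepatocyte markers of its library. On that scale Nr1h4 and Cebpa were lower in BDL than in sham by 0.47 and 0.92 log2 units (-0.47 and -0.92), and Ppara by 0.94 (-0.94), with no overlap between libraries. Nr1i2 and Nr1h3 were higher by 0.84 and 0.18 and did not overlap either. In BDL+LIG against BDL, Rxra was higher by 0.52 and Ppara by 0.75, again with no overlap. The other 8 genes overlapped in that comparison, Hnf4a (0.25) and Nr5a2 (0.31) among them. The share of all tested genes without overlap was not worked out on this scale. In FPKM it was 45.0% for BDL against sham and 51.2% for BDL+LIG against BDL. Of the 9 markers, 3 were themselves called in BDL against sham, with Ttr and Serpina1a lower and Trf higher.

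**Figure D5:**
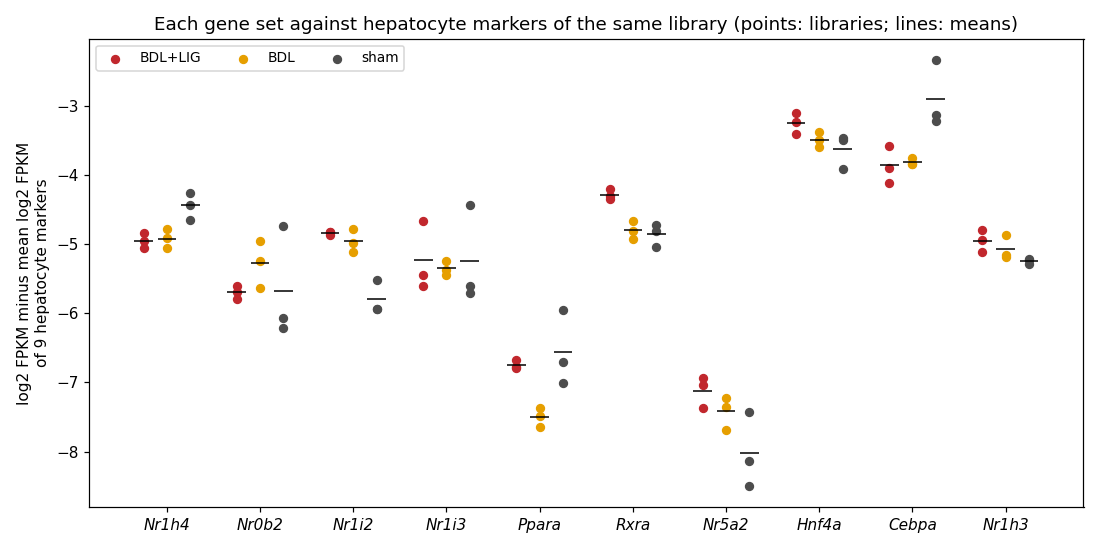
Log2 FPKM of each of the 10 genes minus the mean log2 FPKM of 9 hepatocyte markers in the same library (vertical axis), with points for libraries and lines for group means in BDL+LIG, BDL and sham. Rxra and Ppara sit higher in all BDL+LIG libraries than in all BDL libraries, by 0.52 and 0.75 on average.

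The order of levels differed between groups. Hnf4a led in BDL+LIG (144 ± 15.0 FPKM) and in BDL (112 ± 3.09), ahead of Cebpa (94.7 ± 15.2 and 89.7 ± 2.26), whereas Cebpa led in sham (199 ± 59.0) ahead of Hnf4a (117 ± 12.9). Neither pair overlapped within its group. In BDL+LIG, Rxra came next and stood clear of Nr1i2, Nr1h3, Nr1h4 and Nr1i3, which overlapped their neighbours. In BDL the run of overlapping neighbours was Rxra, Nr1h4, Nr1i2, Nr1h3, Nr0b2 and Nr1i3, and Nr5a2 and Ppara overlapped at the bottom. In sham, Nr1h4 stood in the third place, clear of Rxra, and the genes from Rxra to Ppara overlapped their neighbours. Nr1i2 stood in the fourth place in BDL+LIG, the fifth in BDL and the eighth in sham.

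The genes whose pattern over the 9 libraries was most like each member's were sought among 5163 genes with a mean of at least 5 FPKM, by the root mean square difference of their deviations on the log2 scale. They were picked for likeness, so no test applies, and the 9 libraries fall into the 3 groups. Nr1h4, whose own deviations had a root mean square of 0.302, was closest to Acadsb (0.052), an acyl-CoA dehydrogenase, and Eci2 (0.076). Cebpa (0.549) was closest to Igfals (0.151), which encodes a carrier of insulin-like growth factors in blood. Nr1i2 (0.385) was closest to Csnk1a1 (0.040) and Sf3b3 (0.059), and Rxra (0.276) to AU022252 (0.056). Ppara (0.511) had Slc25a42 (0.182), a mitochondrial carrier of coenzyme A, Tef (0.184) and Abcg5 (0.196) as its closest genes. Nr0b2 (0.385) and Nr1i3 (0.416) had Tmem238 (0.168) and Nrbp2 (0.169) as their closest genes.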

How the data were processed

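Mouse liver RNA was sequenced in 9 libraries, 3 per group. Per the labels' protocols, RNA was extracted with TRIzol and libraries were made with a VAHTS Universal V6 kit. GRCm39 is the build, and DESeq2, fastp and HISAT2 (2.1.0) are the tools, that the submitters' processing notes name. The sources used here do not give the annotation, the counting program or strandedness. The authors deposited FPKM in 1 table of 21470 genes. Columns were tied to samples by title.

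The 10142 genes that reached 1 FPKM in 3 or more libraries were tested with limma 3.58.1 (lmFit, eBayes with trend; R 4.3.3) on log2(FPKM + 1). All 9 libraries entered 1 fit with a coefficient per group. The Benjamini-Hochberg adjustment ran over all tested genes of a comparison, and 0.05 was the threshold. The fit was tested on simulated data. Whole fragments were recovered from the steps between FPKM values of a gene for 19438 of 19449 genes (tolerance 0.01 fragments). The 11 others, Ahsg, Alb, Apoa1, Apoe, COX1, CYTB, Gc, Hpx, ND2, ND5 and Trf, are left out of the totals.

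The 10 genes, the lists and the marker sets were chosen with earlier results of these data known. Named are the 10 genes, a set of well-known targets and factors, the up to 3 members of each list with the smallest adjusted p in BDL against sham and in BDL+LIG against BDL, and for likeness the 3 closest genes. Some genes that this rule names are not reported here. Slc51a, Cetp and Tf were not found in the table by symbol. Promoters came from RefSeq (GRCm38.p6), and the 50 bases after each start are not used here. Alternatives were a pseudocount of 0.1, a mean FPKM of 5 or more as the filter, none at all, TPM, median-of-ratios scaling, quantile normalization, a block for the replicate number, a fit of only the 2 compared groups, voom on recovered fragments, removal of a trend in gene length (loess, span 0.4) and each of the 9 libraries left out.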

Additional observations from a re-analysis of the deposited data

How the results depend on the processing

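With BDL against sham, the 4 calls among the 10 genes held under all 19 alternatives. All called genes numbered 3008 there, 1838 with a mean of at least 5 FPKM, and 1894 to 4668 with a library left out (1902 without BDL 2, 1894 without BDL 3, 4668 without sham 1). BDL+LIG against BDL depended more on the processing, with 1194 called genes in the reported fit. It had 623 without a filter, 575 with a mean of at least 5 FPKM, 630 with median-of-ratios scaling, 1926 as TPM, 3433 with the 2 groups alone and 498 with the length trend removed. With a library left out it had 0 to 3144: 716, 289 and 322 without BDL+LIG 1, 2 and 3, 40, 0 and 54 without BDL 1, 2 and 3, and 3144 without sham 1. Without BDL 2 limma gave 2317 genes at an unadjusted p under 0.05, and voom with all libraries called 1364. BDL+LIG against sham had 5335 calls, and 2765 with a mean of at least 5 FPKM. The 2 of 10 genes called in BDL+LIG against BDL became 1 with log2(FPKM + 0.1), without a filter and with quantile normalization, 0 with median-of-ratios scaling or the length trend removed, and 0 to 3 with a library left out: 0 without any 1 BDL library, 1 without any 1 BDL+LIG library or sham 2, 3 without sham 1. The cause of these shifts was not tested.

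Same-numbered libraries correlated at -0.126 to 0.285 once group means were removed. Differently numbered libraries were not compared, so these values cannot tell whether replicate numbers pair the samples. With the number as a replicate block, BDL+LIG against BDL had 742 called genes and 1 of the 10.

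Signs turned for 1 call, Rxra in BDL+LIG against sham (-0.06 with median-of-ratios scaling, -0.03 with the length trend removed), and otherwise for differences that had not passed. In BDL against sham these were Nr0b2 (-0.08 with median-of-ratios, -0.07 without sham 1), Nr1i3 (0.11 without sham 1), Hnf4a (0.03 as TPM, 0.00 with quantile normalization, 0.01 without sham 1) and Nr1h3 (0.07 as TPM, 0.01, 0.03 and 0.02 without BDL 1, BDL 2 and sham 2). In BDL+LIG against BDL, median-of-ratios turned Nr1h4 (-0.18), Nr1i2 (-0.04), Nr1i3 (-0.03), Cebpa (-0.20) and Nr1h3 (-0.03). The length trend turned Nr1h4 (-0.06) and Cebpa (-0.08), and leaving out a library turned Nr1i3 (-0.05 without BDL+LIG 1) and Cebpa (-0.05 without BDL+LIG 3). In BDL+LIG against sham they were Nr0b2 (0.14 as TPM, 0.31 without sham 3), Nr1i3 (0.18 as TPM, 0.11, 0.07 and 0.34 without BDL+LIG 2, BDL+LIG 3 and sham 1), Ppara (0.02 without sham 1), Hnf4a (-0.25 and -0.21) and Nr1h3 (-0.33 and -0.09), the last pairs for median-of-ratios and the length trend. With a library left out, these differences ranged for BDL against sham from -0.07 to 0.61 (Nr0b2), -0.50 to 0.11 (Nr1i3) and -0.14 to 0.01 (Hnf4a). For BDL+LIG against BDL the ranges were -0.05 to 0.39 (Nr1i3) and -0.05 to 0.17 (Cebpa). They were -0.37 to 0.31 (Nr0b2), -0.34 to 0.34 (Nr1i3) and -0.51 to 0.02 (Ppara) for BDL+LIG against sham. Genes near 1 FPKM rest on few fragments, but on log2(FPKM + 1) their SE was not always the largest. In BDL against sham it was 0.13 for Rarg (1.18 FPKM in sham) and 0.32 for Nr1i3.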

Other observations

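Several genes of the bile acid and receptor routes were too low to test. Gpbar1, the membrane receptor for bile acids found mainly outside hepatocytes, had 0.272 ± 0.257 FPKM in BDL+LIG, 0.0495 ± 0.0858 in BDL and 0.0189 ± 0.0164 in sham (SD, n = 3 libraries each). Vdr, a nuclear receptor that also binds lithocholic acid, had 0.0791 ± 0.0820 FPKM in BDL+LIG, 0.0511 ± 0.0411 in BDL and 0.0212 ± 0.0263 in sham. The coactivator Ppargc1a, which works with PPAR-alpha and HNF4A in fasting, had 0.878 ± 0.0661 FPKM in BDL+LIG, 0.384 ± 0.0789 in BDL and 0.292 ± 0.221 in sham, and its BDL+LIG libraries, at 0.802 to 0.919, lay above all others.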
